A study of Mus musculus with 13 samples.

Results

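The genes described here are 51 collagen and extracellular matrix (ECM) genes, and the question is where OCT4 and SMAD3 bound at them on day 3 of reprogramming, with and without induction of the reprogramming factors. They were taken as a given list out of 21938 protein-coding genes on chromosomes 1 to 19, X and Y of the GENCODE vM21 annotation of the GRCm38 (mm10) mouse genome. A peak was assigned to a gene when it shared at least 1 bp with the gene or with the 10 kb on either side of it. The ChIP-seq samples were mouse embryonic fibroblasts (MEFs) of the TNG MKOS line, which carries a doxycycline (dox)-inducible cassette of c-Myc, Klf4, Oct4 and Sox2 with mOrange, placed at Sp3 together with a CAG-driven rtTA, and 1 Nanog allele replaced by GFP, so the cells are heterozygous for Nanog. All cells, Dox- included, had been infected with a retrovirus for a constitutively active Smad3 (Smad3CA), so no group shows SMAD3 binding without it. OCT4 was precipitated from cells with dox (OCT4 Dox+, n = 3), and SMAD3 from cells with dox (SMAD3 Dox+, n = 3) and without dox (SMAD3 Dox-, n = 3). The labels give the dox dose as 1 µg/ml, while the study's methods give a lower dose for reprogramming in general. Inputs were sequenced from Dox+ cells (n = 2) and Dox- cells (n = 2), for 13 samples in all. The embryos were of both sexes, of stage E12.5 and of a mixed 129 and CD1 background, and nothing in the labels says whether the replicates are separate cultures, so the spread between replicates may be technical. Binding data do not measure expression, so neither the fibroblast identity of the cells nor the output of the matrix genes could be checked here.

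Fibroblasts are the main producers of the fibrillar collagens, fibronectin and the elastic fibre proteins of connective tissue. TGF-β signaling is known as a strong inducer of these genes: the activated receptor phosphorylates SMAD2 and SMAD3, which enter the nucleus with SMAD4 and bind DNA weakly, usually beside other factors. Reprogramming of MEFs toward pluripotency is known to shut down the fibroblast program, to which many matrix genes belong. OCT4 is a pioneer factor of the pluripotency network and one of the induced factors.

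SMAD3 peaks were common at the matrix genes in both groups. In the lists called on pooled replicates they were more frequent there than at all genes, by more without dox. In the list that the authors called on pooled Dox- replicates (the merged list), 41 of the 51 genes had a SMAD3 peak (80.4%, exact 95% binomial interval 66.9 to 90.2), against 48.0% of all protein-coding genes. In the merged Dox+ list 35 of 51 had one (68.6%, interval 54.1 to 80.9), against 52.5% of all genes. Matrix genes are long, with a median span of 60.1 kb against 17.4 kb, and longer windows catch more peaks. Over all genes of the same span, weighted by how the members fall into 10 span classes, the share was 56.1% for the Dox- list and 60.9% for the Dox+ list. The same-span value lay below the interval of the matrix genes in Dox- and inside it in Dox+. Dox+ minus Dox- was -11.8 percentage points for the matrix genes, and -1.96 when only peaks with a -log10 q-value of at least 2 were kept. These intervals and all those below cover counting error only, and genes are not replicates of a condition.

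In the merged lists, 33 of the matrix genes (64.7%) had a peak in both groups, against 43.5% of all genes and 50.5% of genes of the same span. The 8 genes with a peak in Dox- only (15.7%) compare with 4.47% of all genes and 5.59% of genes of the same span. For the 2 genes with a peak in Dox+ only (3.92%) these shares were 9.06% and 10.4%. The Dox- only genes were Bgn, Col6a1, Col6a3, Col14a1, Col16a1, Fbn2, Postn and Tnc, and the Dox+ only genes were Col18a1 and Loxl4. These classes hold for the merged lists only. They count genes, so the peaks of a gene in both lists need not overlap. The Loxl4 peak lay nearer the start of R3hcc1l (6970 bp) than that of Loxl4 (15190 bp). Each of the 8 Dox- only genes had a peak in Dox+ replicate 2, and Loxl4 had one in Dox- replicate 2. Col18a1 had no peak in any Dox- list. Another 8 genes (Col5a3, Col11a1, Col15a1, Eln, Loxl2, Lum, Mmp3 and Nid1) had no peak in either merged list. Their share was 15.7%, against 43.0% of all genes and 33.5% of genes of the same span. Of the 6 SMAD3 replicate lists, 5 had a peak at 9 of the genes, 4 at 11, 3 at 13, 2 at 11 and 1 at 6.

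The replicate lists differed far more in length than the groups did, and the counts of genes followed that length. In the Dox+ lists of replicates 1, 2 and 3, which held 420, 23981 and 10374 peaks, 1, 46 and 30 of the 51 genes had a peak. The same shares over all genes were 2.57%, 63.0% and 47.0%. In the Dox- lists, which held 1656, 18588 and 4038 peaks, 12, 47 and 20 of the 51 genes had a peak, against 10.8%, 56.3% and 22.2% of all genes. The mean share of matrix genes was 50.3% ± 44.7 (SD, n = 3) for the Dox+ lists. For the Dox- lists it was 51.6% ± 36.0 (SD, n = 3), and the means differed by far less than the spread. It changed sign with the lists included, to 22.9 percentage points higher in Dox+ without Dox+ replicate 1 and 18.95 higher in Dox+ without Dox- replicate 2. All 3 Dox- lists and Dox+ replicates 2 and 3 covered a larger share of matrix genes than of all genes, and Dox+ replicate 1 a smaller one. Genes of the same span gave 3.04%, 74.1% and 53.5% in Dox+ and 12.5%, 66.4% and 26.4% in Dox-. The binomial interval of the matrix genes lay above the same-span share in Dox+ replicate 2 and Dox- replicates 1 and 2. It held that share in Dox+ replicates 1 and 3 and Dox- replicate 3.

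**Figure D1:**
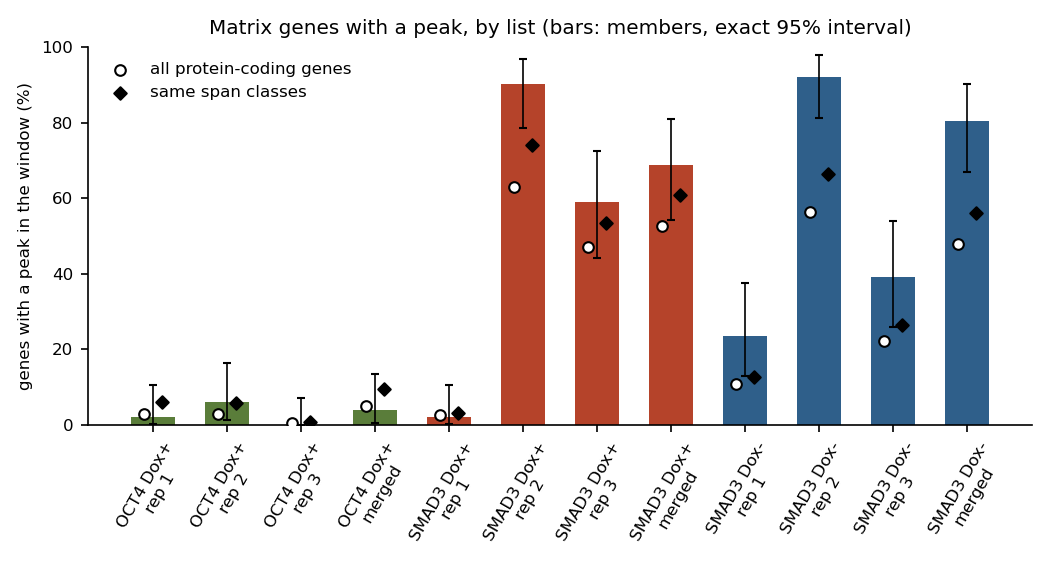
Share of genes with a peak in the gene or within 10 kb of it, for each OCT4 and SMAD3 list. Bars are the 51 matrix genes with exact 95% binomial intervals, circles all 21938 protein-coding genes and diamonds genes of the same span classes; in the merged lists the bars stand at 68.6% (SMAD3 Dox+) and 80.4% (SMAD3 Dox-).

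Peak density takes account of both the length of the lists and that of the windows. The windows of the 51 genes cover 4.69 Mb, and those of all protein-coding genes 1287 Mb. The only windows that share sequence are those of Col4a1 and Col4a2, neighbors that are transcribed in opposite directions, which have 20022 bp in common. In the Dox- lists the density in the matrix gene windows was 2.06, 2.55 and 2.05 times that in all gene windows for replicates 1, 2 and 3, from 12, 137 and 27 peaks. In the Dox+ lists it was 0.706, 1.98 and 1.25 times, from 1, 142 and 44 peaks. On the log2 scale, with 1 peak added to each count, the ratio averaged 1.20 ± 0.14 (SD, n = 3) without dox. With dox it averaged 0.61 ± 0.34 (SD, n = 3). Dox+ minus Dox- was thus -0.59, more than the SD of either group, and the lowest Dox- list exceeded the highest Dox+ list. With 3 lists against 3, an exact two-sided permutation test cannot give a p below 0.1. The added count raised Dox+ replicate 1, which had 1 peak at the matrix genes, from -0.50 to 0.49. With no count added, a setting chosen after the data had been seen, the Dox+ lists averaged 0.27 ± 0.74 (SD, n = 3). The Dox- lists then averaged 1.14 ± 0.18 (SD, n = 3), and the groups again did not overlap. In the merged lists the density was 2.51 times that of all windows in Dox- (91 peaks) and 1.45 times in Dox+ (60 peaks).

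This difference turned to 0.080 when only peaks with a -log10 q-value of at least 2 were kept. At that threshold the replicate 1 lists held 19 (Dox+) and 130 (Dox-) peaks, none of them in a matrix gene window, so that their ratios of 3.93 and 1.10 come from the added count. The other lists gave 0.71 and -0.07 in Dox+ against 1.41 and 1.83 in Dox-. With replicate 1 of both groups left out the difference was -1.30 for these peaks and -0.55 for all peaks, settings that were added after the data had been seen.

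**Figure D2:**
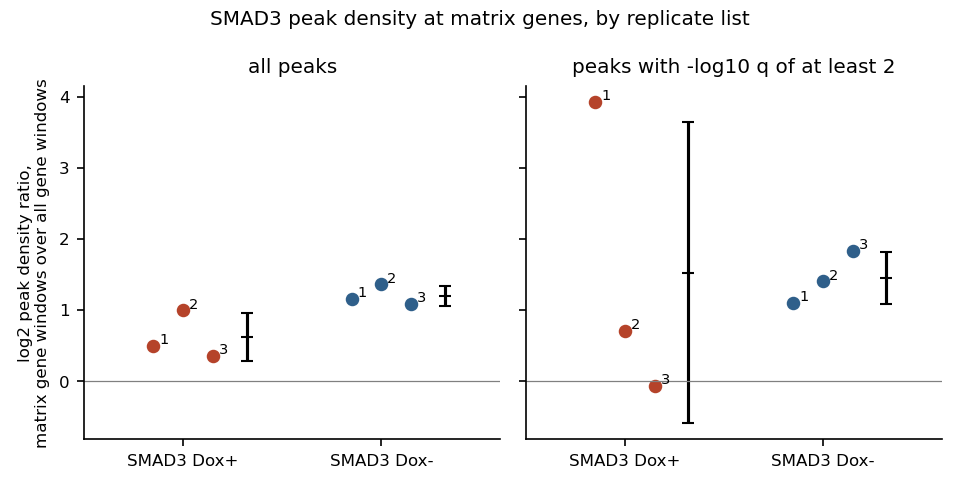
Log2 ratio of SMAD3 peak density in the matrix gene windows to that in all protein-coding gene windows, with 1 peak added to each count. Numbered points are replicate lists and black bars the mean ± SD (n = 3); for all peaks (left) the Dox- mean is 1.20 and the Dox+ mean 0.61, while at a -log10 q-value of at least 2 (right) the replicate 1 values of 3.93 and 1.10 rest on no member peak.

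In both groups, fewer of the merged SMAD3 peaks at matrix genes lay near transcript starts than in all gene windows. Matrix genes are longer, so their windows hold more sequence away from starts, and no share for genes of the same span was taken. Of the 91 merged Dox- peaks at matrix genes, 39 (42.9%) had their center within 1 kb of an annotated start of any protein-coding gene, against 76.3% of the merged Dox- peaks in all gene windows. For the 60 merged Dox+ peaks the shares were 61.7% (37 peaks) and 76.0%. The median fold enrichment over input was similar to that of all windows, at 2.23 against 2.32 in Dox- and 2.22 against 2.30 in Dox+. Among the Dox- peaks, 34 had their center in an intron, 18 upstream and 18 downstream of the gene, 15 in a UTR and 6 elsewhere in an exon. The gene whose window held the peak had the nearest start for 74 of the 91 Dox- and 51 of the 60 Dox+ peaks. Peaks in the windows of both Col4a1 and Col4a2 were counted for Col4a1.

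Only 39 of the 91 Dox- peaks at matrix genes overlapped a merged Dox+ peak (42.9%), against 73.3% in all gene windows. Peaks near a start were shared more often everywhere, so the shares were also taken by distance. Within 1 kb of a start, 31 of 39 Dox- peaks at matrix genes were also in the Dox+ list (79.5%, interval 63.5 to 90.7), against 86.0% in all windows. More than 1 kb from a start, 8 of 52 were (15.4%, interval 6.88 to 28.1), against 32.4%. Seen from the Dox+ list, 86.5% of the 37 peaks near a start (interval 71.2 to 95.5) and 30.4% of the 23 others (interval 13.2 to 52.9) were also in the Dox- list, against 75.8% and 28.7% in all windows. Of the member peaks, 35 of 60 in Dox+ and 30 of 91 in Dox- were present in at least 2 replicate lists of their group. When only those were counted, 54.9% of matrix genes had a Dox+ peak and 45.1% a Dox- peak, the reverse of the order in the full merged lists. Over all protein-coding genes the same filter left 43.8% with a Dox+ peak and 23.7% with a Dox- peak, the same order.

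**Figure D3:**
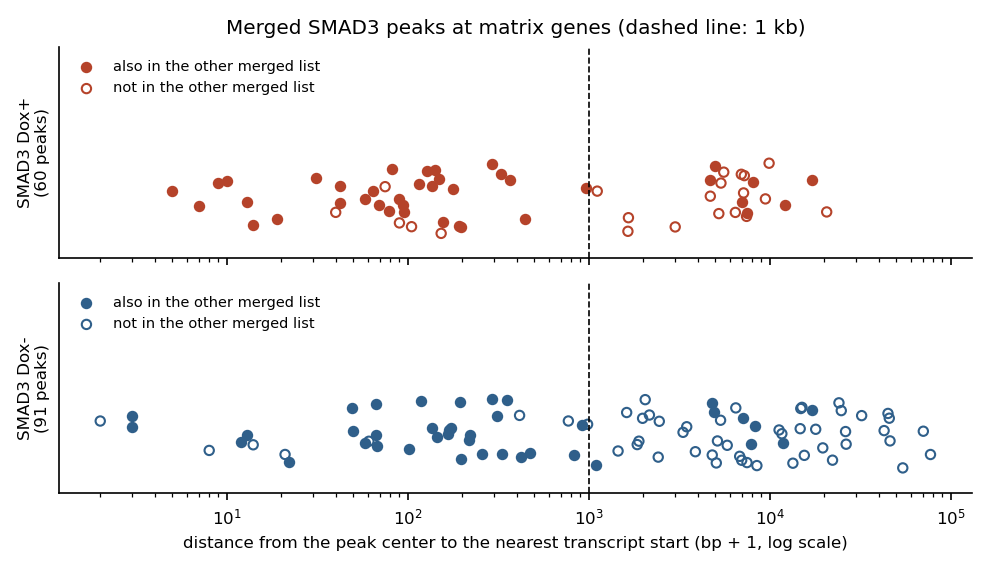
Distance from the center of each merged SMAD3 peak at the 51 matrix genes to the nearest transcript start of a protein-coding gene, in bp plus 1 on a log axis, with jitter on the vertical axis. Filled points overlap a peak of the other group's merged list and open points do not; beyond the dashed line at 1 kb, 8 of 52 Dox- peaks and 7 of 23 Dox+ peaks are filled.

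The fibrillar collagens form the tension-bearing fibers of connective tissue, and 5 of the 7 genes (Col1a1, Col1a2, Col3a1, Col5a1 and Col5a2) had a peak in both merged SMAD3 lists. Col1a1, which encodes the α1 chain of type I collagen (chr11:94936224-94953042, + strand), had the highest fold enrichment of any merged SMAD3 peak at a matrix gene. This Dox- peak, chr11:94933676-94933930, lay 2421 bp upstream of the gene start with a fold enrichment of 5.87, was present in replicate 2 only, and was not in the merged Dox+ list. The highest fold in the Col1a1 window was 0 (no peak), 2.74 and 2.62 in Dox+ replicates 1, 2 and 3 and 2.42, 7.91 and 2.53 in the Dox- replicates, and the groups overlapped. Peaks also lay at the start of the gene in both groups, with 1.83 in Dox+ and 2.68 in Dox-.

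Col1a2, the α2 chain of type I collagen (chr6:4504814-4541544, + strand), had a merged peak within its first exons and a second downstream of its 3′ end in both groups. Its highest folds were 0, 2.41 and 2.67 in the Dox+ lists and 0, 2.98 and 2.40 in the Dox- lists, so neither group stood above the other. Col3a1, the chain of type III collagen (chr1:45311538-45349706, + strand), had 0, 5 and 2 peaks in the Dox+ lists and 0, 5 and 0 in the Dox- lists. The covered length of its window was 0, 2496 and 2994 bp in Dox+ and 0, 8234 and 0 bp in Dox-, which again overlapped. Col5a3, a minor fibrillar chain, was the only member without a peak in any OCT4 or SMAD3 list.

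Of the 8 other collagens, all had a merged Dox- peak and 4 a merged Dox+ peak. The only merged peaks at Col7a1 lay downstream of it, at the start of Pfkfb4 (57 bp away in Dox- and 8 bp in Dox+). Type VI collagen forms beaded filaments near the cell surface. Its α2 gene Col6a2 had a Dox- peak of 3.95-fold just downstream of the gene, chr10:76595513-76595747, that was absent from the merged Dox+ list and present in replicate 2 only. Col12a1, which encodes a collagen that decorates type I fibrils, had a Dox- peak of 3.34-fold 135 bp from its start that was found in all 3 Dox- lists and overlapped a merged Dox+ peak.

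Among the 10 basement membrane genes, 8 had a merged Dox+ peak and 7 a merged Dox- peak. Type IV collagen is the network-forming collagen of basement membranes, and its genes Col4a1 and Col4a2 share the region between them. A Dox+ peak of 3.30-fold lay at chr8:11313822-11314057, 1114 bp from the start of Col4a1 and in the first intron region of Col4a2. It was present in Dox+ replicate 3 only and was absent from the merged Dox- list. Nid1 (nidogen 1, a linker of laminin and type IV collagen) had peaks in Dox+ replicate 2 only, and Col15a1 in Dox- replicate 2 only.

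The elastic fibre genes encode fibrillins, fibulins and elastin. Of these 6 genes, 4 had a merged Dox+ peak and 5 a merged Dox- peak. At Fbn1 (fibrillin 1, the main microfibril protein; chr2:125300594-125507993, - strand), 7 merged Dox- peaks and 1 merged Dox+ peak were found. The peak at the gene start was shared, with folds of 2.85 in Dox+ and 2.81 in Dox-. The other 6 Dox- peaks lay in introns or downstream of the gene, with folds of 2.26 to 2.86, and each was present in Dox- replicate 2 only. The Fbn1 window held 0, 10 and 1 peaks in the Dox+ lists and 1, 8 and 1 in the Dox- lists, so Dox+ replicate 2 held more Fbn1 peaks than any Dox- list. Fbln2, a fibulin, had a peak of 3.63-fold at its start in the merged Dox+ list, where the overlapping Dox- peak had 1.68. Elastin itself (Eln) had a peak in Dox- replicate 2 only.

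The lysyl oxidases cross-link collagen and elastin. Of these 5 genes, 4 had a merged Dox+ and 3 a merged Dox- peak. The window of Loxl3 held a Dox- peak of 5.01-fold, chr6:83027940-83028547, but this peak lay 7 bp from the start of the neighboring gene M1ap, 5929 bp from Loxl3, and was in no replicate list. Loxl2 had a peak in Dox+ replicate 2 only.

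All 5 glycoprotein genes had a merged Dox- peak and 3 a merged Dox+ peak. Sparc, a collagen-binding protein that affects fibril assembly (chr11:55394500-55423183, - strand), had the strongest Dox+ peak of the matrix genes, of 5.39-fold at chr11:55419697-55419913, 93 bp from a start. It was present in Dox+ replicates 2 and 3 and overlapped a merged Dox- peak of 2.98-fold. The highest folds at Sparc were 0, 3.71 and 4.50 in the Dox+ lists and 0, 2.26 and 0 in the Dox- lists, with replicate 1 of each group at 0. Fn1, fibronectin (chr1:71585520-71653200, - strand), had a peak at its start in both merged lists, of 1.78-fold in Dox+ and 2.81-fold in Dox-. Its folds were 0, 2.99 and 0 in the Dox+ lists and 2.60, 2.32 and 0 in the Dox- lists.

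The proteoglycans organize collagen fibrils and the pericellular matrix, and 2 of the 4 had a peak in both merged lists. Vcan (versican) had a peak of 3.56-fold at its start in Dox+, which overlapped a merged Dox- peak of 1.74-fold. Its highest folds were 0, 2.14 and 1.62 in the Dox+ lists and 0, 3.77 and 0 in the Dox- lists, so the groups overlapped. Bgn (biglycan) had 3 merged Dox- peaks, each also in Dox- replicate 2, and no merged Dox+ peak, although Dox+ replicates 2 and 3 each held 2 peaks in its window. Lum (lumican) had a peak in Dox- replicate 2 only.

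Metalloproteinases degrade matrix and the TIMP proteins inhibit them. All 3 inhibitor genes had a peak in both merged lists, as did Mmp14 and Mmp2. The Dox- peak at Timp1 lay 8559 bp upstream of that gene, nearer the start of Araf (3884 bp), and overlapped no merged Dox+ peak. Mmp14 encodes a membrane-bound collagenase that activates pro-MMP2. It had 5 merged Dox- peaks, of which 3 within the gene had folds of 3.20 to 4.00 and did not overlap a merged Dox+ peak. Of these, chr14:54433223-54435434 was present in all 3 Dox- lists. The highest fold at Mmp14 was 0, 2.38 and 2.21 in the Dox+ lists and 2.24, 4.11 and 2.26 in the Dox- lists. The single Mmp3 peak was in Dox- replicate 2.

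**Figure D4:**
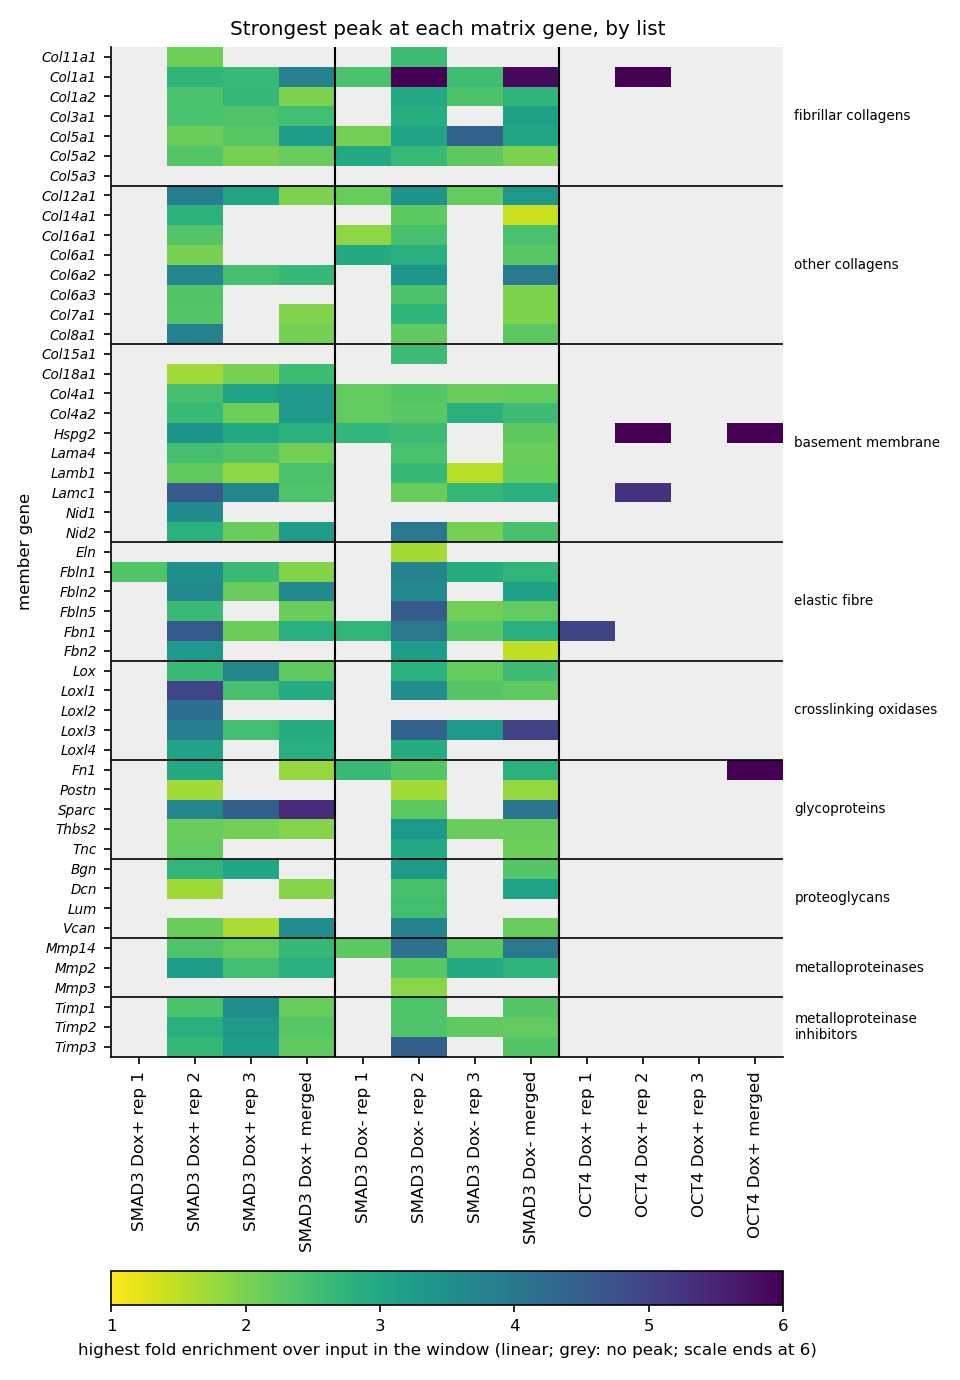
Highest fold enrichment over input of a peak in the window of each matrix gene (rows, by role) in each list (columns), on a linear color scale that ends at 6, with grey for no peak. Replicate 1 of SMAD3 Dox+ has a peak at Fbln1 only, and Col5a3 has none in any list.

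No matrix gene had non-overlapping groups in the length of its window covered by peaks, and few genes anywhere did: 0.0182% of all genes had every Dox- list above every Dox+ list and 0.0957% the opposite. When the covered length was divided by the total length of the list, 5 matrix genes had every Dox- list above every Dox+ list, namely Col1a1, Col4a2, Col5a1, Col12a1 and Fbn1, against 1.66% of all genes. None had the opposite order, against 0.506% of all genes. For Col1a1 these values were 0, 289.9 and 265 bp per Mb of listed peaks in Dox+ and 1659, 505.5 and 973.2 in Dox-, and replicate 1 of Dox+ was at 0 for each of the 5 genes.

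The authors' table of SMAD3 sites that differed between Dox+ and Dox- held more sites with lower SMAD3 binding with dox than with higher binding at the matrix genes. Sites with a lower mean in Dox+ were found at 13 of the 51 genes (25.5%, interval 14.3 to 39.6), against 3.85% of all genes and 4.94% of genes of the same span. Sites with a higher mean in Dox+ were found at 3 genes (5.88%, interval 1.23 to 16.2), against 6.64% of all genes and 7.36% of genes of the same span. The authors chose these sites on the libraries described here, so the counts are not independent evidence of a direction, and the table gives group means without a value per replicate.

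The same was seen per region. The regions that the authors' comparison could have listed were rebuilt by joining the peaks of the 6 replicate lists and keeping those present in at least 2. Of 13218 such regions 82 lay in matrix gene windows, and 16 of these were listed as lower in Dox+ (19.5%, interval 11.6 to 29.7). The share was 5.56% of the regions in all gene windows and 6.84% of all regions. Only 3 were listed as higher (3.66%, interval 0.761 to 10.3), against 8.25% in all gene windows and 8.90% of all regions. The regions were not split by distance from a start. The lower sites lay at Bgn (2 sites), Col1a1, Col1a2 (2 sites), Col4a2, Col6a1, Col16a1, Fbln1 (2 sites), Fn1, Lamb1, Lox, Mmp2, Mmp14 and Sparc. The higher sites lay at Col4a1, Col18a1 and Fbln1, so Fbln1 held sites of both kinds. For each of the 19 sites the nearest transcript start was that of the matrix gene itself. By role, lower sites were found at 2 of 7 fibrillar collagens, 2 of 8 other collagens, 2 of 10 basement membrane genes, 1 of 6 elastic fibre genes, 1 of 5 lysyl oxidases, 2 of 5 glycoproteins, 1 of 4 proteoglycans, 2 of 3 metalloproteinases and none of the 3 inhibitors.

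Levels at these sites are the authors' log2 mean normalized read concentrations. At the 16 lower sites the Dox- mean ran from 3.41 to 5.69 with a median of 4.51, and the Dox+ mean from 1.45 to 4.59 with a median of 2.69. Without the log, these normalized group means are 10.6 to 51.7 in Dox- and 2.73 to 24.1 in Dox+. They are not read counts of single libraries, and single sites may rest on few reads. The Dox- median of all 904 lower sites was 4.02 and the Dox+ median 2.16, both below the medians at the matrix genes. The lower sites at matrix genes were 498 to 3081 bp wide, and width was not taken into account in comparing means.

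Replicate lists bore on the sites unevenly. The 16 lower sites were overlapped by 0, 13 and 5 of them in Dox+ replicates 1, 2 and 3, and by 4, 16 and 7 in the Dox- replicates. More Dox- than Dox+ lists overlapped 9 of the sites, equal numbers overlapped 4, and more Dox+ than Dox- lists overlapped 3, which were the downstream sites of Bgn and Col1a2 and the site at Mmp2. At these 3 sites the group means and the peak calls thus differ in direction. The 3 higher sites were overlapped by no Dox- list, and by 1, 3 and 3 of them in the Dox+ lists.

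The lower sites with the highest authors' Dox- means were those of the type I collagen genes, fibronectin and Lox. The Col1a1 site (chr11:94936004-94937773, centered in an intron 665 bp from the start) had authors' log2 means of 5.69 in Dox- and 4.59 in Dox+. It was a peak in all 3 Dox- lists (folds 2.03, 3.49 and 2.24) and in Dox+ replicates 2 and 3 (2.74 and 2.26). The Col1a2 site at the start of the gene (chr6:4504489-4507569, center 327 bp from a start) had 5.42 in Dox- and 3.73 in Dox+, and the site 3′ of the gene (chr6:4541417-4544330) had 5.12 and 3.59. The Fn1 site just upstream of the gene (chr1:71652616-71654496, center 356 bp from the start) had 5.29 in Dox- and 3.64 in Dox+. Its peaks had folds of 2.60 and 2.32 in Dox- replicates 1 and 2 and 2.99 in Dox+ replicate 2.

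Lox, the founding lysyl oxidase, had a site 3′ of the gene, 14862 bp from its start, with means of 5.32 in Dox- and 2.73 in Dox+, and no Dox+ list had a peak there. The same held for the intronic site of Col4a2 (chr8:11392781-11393528), with 3.79 in Dox- and 1.74 in Dox+, and for the second intronic site of Fbln1 (chr15:85245312-85245809), with 3.41 and 2.21. Each of these 3 sites was a peak in Dox- replicates 2 and 3.

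At the other lower sites the Dox- mean ran from 3.50 to 5.01. Lamb1, the β1 chain of laminin, had an intronic site with 4.27 in Dox- and 2.37 in Dox+. Col6a1 had one downstream of the gene with 5.01 and 3.07, and Col16a1, a fibril-associated collagen, one at its start with 4.06 and 2.64. The remaining lower sites were those of Bgn at an exon (3.50 and 1.86) and downstream (4.82 and 3.42), Fbln1 in another intron (4.01 and 1.73), Mmp2 upstream of the start (4.74 and 2.89), Mmp14 in an exon (3.56 and 1.45) and Sparc downstream (4.24 and 2.36). In all, 6 of the 16 sites had their center within 1 kb of a start.

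The higher sites lay inside the genes and away from starts. The Fbln1 site (chr15:85273188-85274695, intron, 10488 bp from a start) had authors' log2 means of 4.15 in Dox+ and 0.95 in Dox-. It was the only matrix gene peak of Dox+ replicate 1, with folds of 2.35, 1.55 and 2.58 in the Dox+ lists. The Col4a1 site (chr8:11227262-11228452, intron) had 3.22 in Dox+ and 0.44 in Dox-, and was a peak in Dox+ replicates 2 and 3 (2.48 and 3.13). The Col18a1 site (chr10:77052212-77052904, 3′ end of the gene, in a UTR) had 3.45 in Dox+ and 0.95 in Dox-, with peaks in the same replicates (1.69 and 2.02). Col18a1 encodes the precursor of endostatin.

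**Figure D5:**
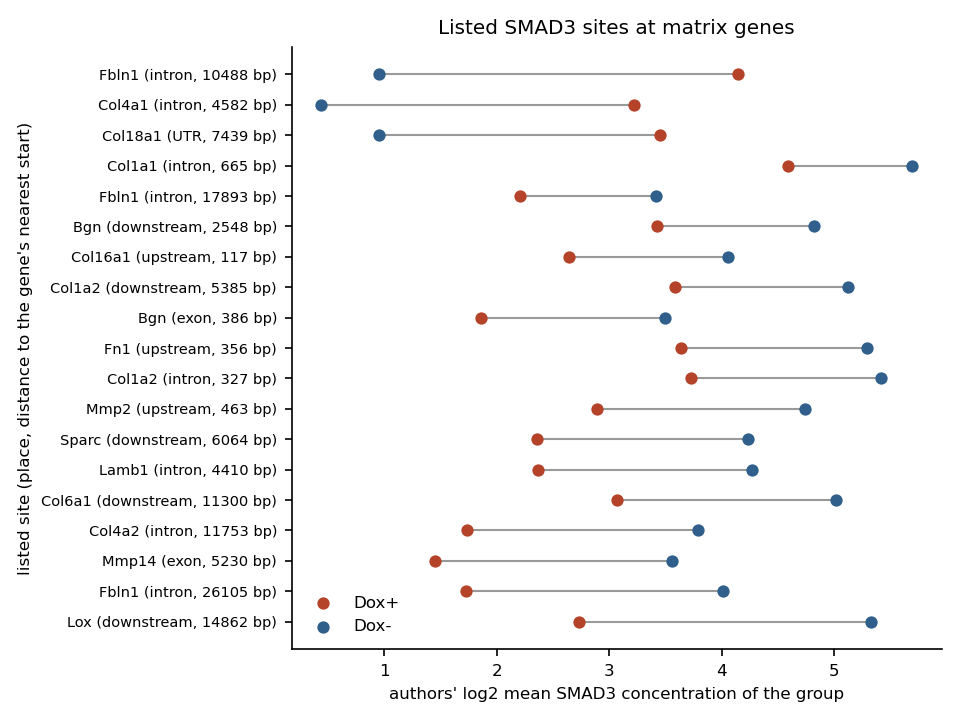
Authors' log2 mean SMAD3 concentration in Dox+ (red) and Dox- (blue) at the 19 listed sites of the matrix genes, ordered by the difference, with each site's place and its distance in bp from the gene's nearest start. At 16 sites the Dox- mean is higher, up to 5.69 at Col1a1, and at the 3 sites at the top the Dox+ mean is higher.

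The sequence at the center of selected sites is shown so that the bound regions can be read beside their values. Each is the + strand of GRCm38 within 100 bp of the center, in lower case. Capitals mark matches, on either strand, to any of 6 motifs: CAGAC (SMAD), GTCTAGAC (palindromic SMAD), TGANTCA (AP-1), ATGCAAAT (octamer of OCT4), GGGNGTGG (KLF) and GGAATG (TEAD). GTCTAGAC does not itself contain CAGAC on either strand, and no motif matches overlapped in these windows. The lower sites shown are those of Col1a1 (a TGANTCA match, with T at the open base), Col1a2 at the start of the gene (a TEAD match), Fn1 (a SMAD match) and Col4a2 (SMAD matches at 2 places).
Col1a1, chr11:94936789-94936989: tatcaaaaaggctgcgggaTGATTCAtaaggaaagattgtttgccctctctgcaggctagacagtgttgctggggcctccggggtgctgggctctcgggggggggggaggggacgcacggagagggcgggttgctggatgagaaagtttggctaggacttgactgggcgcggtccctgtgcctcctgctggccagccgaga
Col1a2, chr6:4505929-4506129: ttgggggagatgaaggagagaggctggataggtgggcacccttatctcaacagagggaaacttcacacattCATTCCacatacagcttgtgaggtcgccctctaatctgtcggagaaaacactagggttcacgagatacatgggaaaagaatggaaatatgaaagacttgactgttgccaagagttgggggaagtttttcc
Fn1, chr1:71653456-71653656: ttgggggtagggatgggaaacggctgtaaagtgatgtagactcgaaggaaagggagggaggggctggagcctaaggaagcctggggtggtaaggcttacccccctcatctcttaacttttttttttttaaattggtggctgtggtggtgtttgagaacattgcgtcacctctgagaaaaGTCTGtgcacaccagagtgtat
Col4a2, chr8:11393055-11393255: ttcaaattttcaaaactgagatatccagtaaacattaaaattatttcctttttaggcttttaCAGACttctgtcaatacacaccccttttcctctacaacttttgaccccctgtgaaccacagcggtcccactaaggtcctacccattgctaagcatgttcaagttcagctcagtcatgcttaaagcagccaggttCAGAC

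The higher sites of Col4a1 and Fbln1 are shown for comparison. Col4a1 held a KLF and a SMAD match and Fbln1 a SMAD match.
Col4a1, chr8:11227757-11227957: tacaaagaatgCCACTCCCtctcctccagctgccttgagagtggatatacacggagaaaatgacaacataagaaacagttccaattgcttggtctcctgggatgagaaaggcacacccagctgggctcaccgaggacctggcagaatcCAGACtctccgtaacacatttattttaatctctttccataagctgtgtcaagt
Fbln1, chr15:85273842-85274042: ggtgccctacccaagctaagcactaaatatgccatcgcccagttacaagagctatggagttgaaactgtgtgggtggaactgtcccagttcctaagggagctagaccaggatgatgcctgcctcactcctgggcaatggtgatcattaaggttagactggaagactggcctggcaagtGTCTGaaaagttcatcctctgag

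Over the 16 lower sites of the matrix genes, 6 windows (37.5%) held CAGAC, against 38.9% of the windows of all 904 lower sites. TGANTCA, GGGNGTGG and GGAATG were each found in 1 window (6.25%), against 10.1%, 10.6% and 15.8%. GTCTAGAC and ATGCAAAT were found in none, against 0.553% and 0.996%. Of the 3 higher sites all held CAGAC, against 37.4% of the 1176 higher sites, and 1 each held GGGNGTGG and GGAATG, against 14.2% and 9.44%. Such matches describe the letters in these windows only, and the counts at the matrix gene sites are small.

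In the larger sets of merged peaks CAGAC was again near the share of all peaks, at 40.0% against 35.0% in Dox+ and 37.4% against 36.1% in Dox-. The windows of the 60 Dox+ peaks at matrix genes held GGGNGTGG in 23.3%, against 15.0% of all 12576 merged Dox+ peaks, and GGAATG in 18.3%, against 8.92%. For the 91 Dox- peaks these shares were 12.1% against 12.1% and 13.2% against 10.3%. TGANTCA was found in 1.67% of the Dox+ and 4.40% of the Dox- peaks, against 5.63% and 7.54%. GTCTAGAC was found at 2 Dox+ peaks (3.33%) and no Dox- peak of the matrix genes, against 0.247% and 0.252% of all merged peaks. ATGCAAAT was found at 1 Dox- peak (1.10%) and no Dox+ peak, against 0.539% and 0.779%.

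OCT4 peaks were rare at matrix genes, as they were at all genes. A peak of the merged OCT4 list lay at 2 of the 51 genes (3.92%, interval 0.478 to 13.5), against 4.85% of all genes and 9.54% of genes of the same span, both inside that interval. The replicate lists of 1181, 1115 and 102 distinct peaks had a peak at 1, 3 and 0 of the genes (1.96%, 5.88% and 0%), against 2.89%, 2.87% and 0.337% of all genes. Genes of the same span gave 5.94%, 5.68% and 0.693%.

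The merged OCT4 peaks were at Fn1 and at Hspg2, which encodes perlecan, the heparan sulfate proteoglycan of basement membranes. The Hspg2 peak (chr4:137470401-137470585, in an intron, 1679 bp from a start) had a fold enrichment of 6.77 and was present in OCT4 replicate 2. It overlapped a merged SMAD3 peak in Dox+ and none in Dox-. The authors' pooled, input-subtracted coverage over its central 200 bp was 29.0 for OCT4, 18.6 for SMAD3 Dox+ and 3.84 for SMAD3 Dox-. The Fn1 peak (chr1:71646034-71646259, in an intron, 4857 bp from a start) had a fold of 6.06 but was in no replicate list. Its coverage was 23.5, 7.79 and 1.33, and no merged SMAD3 peak of either group overlapped it. Over all entries of the OCT4 list the median coverage was 21.6, 7.24 and 0.028, so both peaks lay above the median in each track, by little at Fn1 for OCT4 and SMAD3 Dox+. The sequence within 100 bp of each summit is shown with motif matches in capitals as above.
Hspg2, chr4:137470382-137470582: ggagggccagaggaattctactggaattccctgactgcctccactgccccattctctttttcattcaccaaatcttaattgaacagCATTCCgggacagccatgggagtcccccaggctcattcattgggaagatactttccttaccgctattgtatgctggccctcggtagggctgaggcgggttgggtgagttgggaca
Fn1, chr1:71646045-71646245: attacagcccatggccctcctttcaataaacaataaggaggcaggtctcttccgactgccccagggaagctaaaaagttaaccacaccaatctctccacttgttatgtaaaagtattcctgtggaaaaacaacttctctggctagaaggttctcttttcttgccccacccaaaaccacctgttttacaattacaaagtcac

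The Hspg2 window held the TEAD motif once and the Fn1 window none of the 6. ATGCAAAT was found in 6.63% and CAGAC in 30.9% of the windows of all 2022 merged OCT4 regions. Motifs were matched only as written, with any base allowed at N, so a match with other changed letters was not counted.

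Peaks in single OCT4 replicates were found at 3 more genes. Lamc1, the γ1 chain of laminin, had a replicate 2 peak just upstream of its start (5.26-fold), which overlapped a merged SMAD3 Dox+ peak and no merged Dox- peak. A merged Dox- peak at the same start (chr1:153332456-153332882) did overlap that Dox+ peak. Col1a1 had a replicate 2 peak downstream of the gene (6.25-fold), and Fbn1 a replicate 1 peak deep in an intron (4.97-fold). None of these 3 OCT4 peaks was in the merged OCT4 list.

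A second table of the authors compared OCT4 with SMAD3 within Dox+ cells. Sites with the higher mean for OCT4 lay at 3 matrix genes, Fbn1, Hspg2 and Timp1 (5.88%, interval 1.23 to 16.2). The share was 4.17% of all genes and 7.41% of genes of the same span. Sites with the higher mean for SMAD3 lay at 5, Fbn1, Hspg2, Nid2, Sparc and Timp3 (9.80%, interval 3.26 to 21.4). The share was 5.15% of all genes and 5.00% of genes of the same span, and each interval held both shares. The antibodies differ in efficiency, so a higher mean is not more protein. Hspg2 and Fbn1 held a site of each kind. At Hspg2 the SMAD3 site covered the start (center 58 bp from it), with authors' log2 means of 1.12 for OCT4 and 3.24 for SMAD3, and the OCT4 site covered the intronic peak, with 4.92 and 3.04. At Fbn1 the SMAD3 site was also at the start (2.40 and 4.60), and the OCT4 site at the intronic replicate 1 peak, 161231 bp from the Fbn1 start (4.71 and 0.49). Timp1, an inhibitor of metalloproteinases, had its OCT4 site downstream of the gene, with 3.85 for OCT4 and 2.21 for SMAD3. Nid2 (1.90 and 3.62), Sparc (1.12 and 3.43) and Timp3 (2.31 and 3.66) had SMAD3 sites within 1480 bp of a start.

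Other genes of matrix biology were counted in the same way. Of 14 genes for collagen folding and processing, such as the collagen chaperone gene Serpinh1, 12 had a merged Dox+ peak and 13 a merged Dox- peak, and 3 (Serpinh1, Plod1 and Bmp1) had a lower site and none a higher one. Of 12 collagen genes known from other tissues, such as cartilage, 5 had a Dox+ and 4 a Dox- peak, with a lower site at Col9a3 and higher sites at Col2a1 and Col4a4. Of 13 integrins and other matrix receptors, 11 had a Dox+ and 10 a Dox- peak, with a lower site at Ddr1, a collagen receptor. Together 28 of these 39 genes had a merged Dox+ and 27 a merged Dox- peak, against 52.5% and 48.0% of all genes. A lower site was found at 5 and a higher site at 2 of the 39, against 3.85% and 6.64% of all genes.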

How the data were processed

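Per the labels and the study's methods, the authors trimmed reads (Trimmomatic 0.36), aligned them to mm10 (Bowtie2), removed duplicates (Picard 2.3.0), low-quality and blacklisted reads, and called peaks with MACS2 2.1.0 against pooled input, for single replicates and for each group's replicates combined (merged). For every peak the authors' deposited lists give the fold enrichment over input (a ratio, not logged) and the q-value as −log10. The deposited matrices hold a signed score, input-subtracted coverage of pooled replicates at the OCT4 peaks (deepTools 2.2.3). The authors' 2 deposited tables of differential sites (DiffBind 1.16.3) hold group means on the log2 scale, which were used, and folds, p-values and false discovery rates, which were not. No deposited file used here gives read counts, so the depth of each library is unknown. The number of peaks per list is given instead, and whether it follows depth was not tested. Gapped versions of the SMAD3 lists held the same regions and were not used.

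Peaks that differ only in their summit were joined. Genes came from GENCODE vM21. The sequences came from the RefSeq copy of GRCm38, in which 2000 of 2000 RefSeq promoters compared matched by coordinates and no peak passed a chromosome end. The members and gene lists were chosen with earlier results of these data known, so no p-value is given for them. Comparison with gene sets drawn to the same span was replaced by shares over all protein-coding genes and over 10 span classes. Named genes were those with a merged OCT4 peak, a listed site, no peak, or 1 of the 10 highest folds of a merged SMAD3 peak, and Col1a1, Col1a2, Col3a1 and Fn1. Genes named for a peak in 1 list or group only were chosen after their values were seen. Alternatives were other windows (0, 5 and 50 kb), peak centers, stricter q-values, lists reduced to the shortest, lists left out, and same-numbered lists paired. Labels give replicates a number and no other link. The deviations of same-numbered lists from their group mean (log2 covered bp + 1 per gene, 14706 genes) correlated at 0.17, -0.06 and 0.01, so the numbers were not taken to pair the lists. Python 3.11.15, numpy 2.4.6, pandas 2.3.3, scipy 1.17.1, matplotlib 3.10.9 and samtools 1.23.1 were used, and the overlap steps were tested on simulated data.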

Additional observations from a re-analysis of the deposited data

How the results depend on the processing

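Of 59 alternative values, 44 kept the direction and stayed within the spread or within 1.5 times the count, 10 moved further and 5 changed sign. The 44 include the share and density differences with same-numbered lists paired, which equal the main values by arithmetic. For the share of matrix genes the spread was an SD of 44.7 percentage points, so a value of -21.2 still counted as kept. The Dox+ minus Dox- difference in the share of matrix genes with a peak, -1.31 percentage points, was 5.23 with a −log10 q-value of at least 2 and ran from -21.2 to 22.9 when single lists were left out (22.9 without Dox+ replicate 1, 18.95 without Dox- replicate 2). The difference between merged lists, -11.8 percentage points, was -1.96 with a −log10 q-value of at least 2, which still counted as kept. It was 9.80 for peaks in at least 2 replicate lists. The log2 density difference of -0.59 was 0.080 at a −log10 q-value of at least 2, where the replicate 1 lists held no member peak, and -1.30 when these lists were also left out (added after seeing the data). It was -0.87 with no added count (also added after seeing the data) and -1.29 with every list reduced to its 420 strongest peaks, and ran from -0.78 to -0.46 with single lists left out. With windows of 50 kb, 15.7% of matrix genes had an OCT4 peak and 7 a site higher in Dox+, and the share was 0 for merged OCT4 peaks found in 2 or more replicates. The number of genes with a lower site was 10 for gene bodies and 17 for 50 kb. Genes whose groups did not overlap in covered length numbered 5 after division by the list total and 0 to 1 with single lists left out (1 without Dox+ replicate 1, Dox+ replicate 2 or Dox- replicate 1).

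Pairing same-numbered lists (replicate block) cannot change a mean difference when each group has 3 lists, so it bears on the spread only. The SD of the 3 pairs was 20.6 for the share difference of -1.31 and 0.19 for the density difference of -0.59. With that block, Dox- lay above Dox+ in covered length in every pair at 3 matrix genes (Col1a1, Col4a2 and Fbn1; 0.725% of all genes), and the opposite at 0 (1.11%). Not every list correlated best with its own number. The depth of single libraries is not known here, and replicate 1 of both groups, with few peaks, could show little at any gene. Group means at listed sites have no replicate error.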
